A study of Mus musculus with 11 samples.

Results

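The genes described here are those that shape, move and remove mitochondria. They were chosen by name from a list of 43 symbols covering mitochondrial fusion and fission, mitophagy, autophagosome formation, the lysosome, mitochondrial transport and the channels of the outer membrane. Of these symbols, 41 were found among the 36666 genes of the count table, and all 41 passed the filter on low counts and are among the 17983 genes tested. The transcription factor genes Tfeb and Tfe3 were not analysed here. Poly(A)+ RNA of the cerebrum was sequenced from male C57/Bl6 mice aged 1 year. The 7 mutator mice carry the Polg D257A change on both alleles, a knock-in present in all tissues that impairs the proofreading of the mitochondrial DNA polymerase. The 4 controls are littermates from the same breeding of WT/D257A mice, 3 of them WT/WT and 1 WT/D257A, so that 1 control also carries the mutator allele. Every sample is 1 mouse, and a mouse is named by its number in the labels.

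Mitochondria form a network that fuses and divides. A damaged part of it can be split off, enclosed by an autophagosome and degraded in a lysosome. It is singled out either by ubiquitin, through the kinase PINK1 and the ligase parkin, or by receptors of the outer membrane. In neurons the same organelles are carried along axons by motor complexes, and loss of PINK1 or parkin causes early-onset parkinsonism in humans. Much of this system is controlled through the stability, phosphorylation and lipidation of proteins, which counts of mRNA do not measure.

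The levels of these transcripts in the mutators lay close to those of the controls. Only Map1lc3a, which encodes the autophagosome protein LC3A, passed the threshold of an adjusted p-value under 0.05, and it was lower in the mutators by 17.2%. Among all genes tested, 1.24% were called by the same test, 0.801% as lower and 0.439% as higher. The log2 fold changes of the 41 genes, mutator minus control, ran from -0.27 to 0.12, with 17 above 0 and 24 below, where 49.6% of all genes tested were below, and their median was -0.0039, where the median of all genes tested was 0.0014. For 40 of the 41 genes the whole 95% interval of the fold change lay between 20% below and 25% above the control level, a precision reached by 58.7% of all genes tested. The intervals of 38 genes lay within 1.2-fold and those of 15 within 1.1-fold. Without adjustment, 4 of the 41 had p under 0.05, Map1lc3a, Atg9a and Wipi1 as lower and Lamp2 as higher, where 15.8% of all genes tested had one, 8.58% as lower. Leaving out control 205 or mutator 207 raised that count of 4 to 7 or 10. The number of all genes tested with an adjusted p-value under 0.05 also rose, from 223 to 412 or 274. The share of all genes with an unadjusted p under 0.05 in those fits was not compared. Map1lc3a was also the 1 gene of the 41 whose 2 groups of mice were fully separated, against 2.62% of all genes tested, 1.42% with the mutators below.

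**Figure D1:**
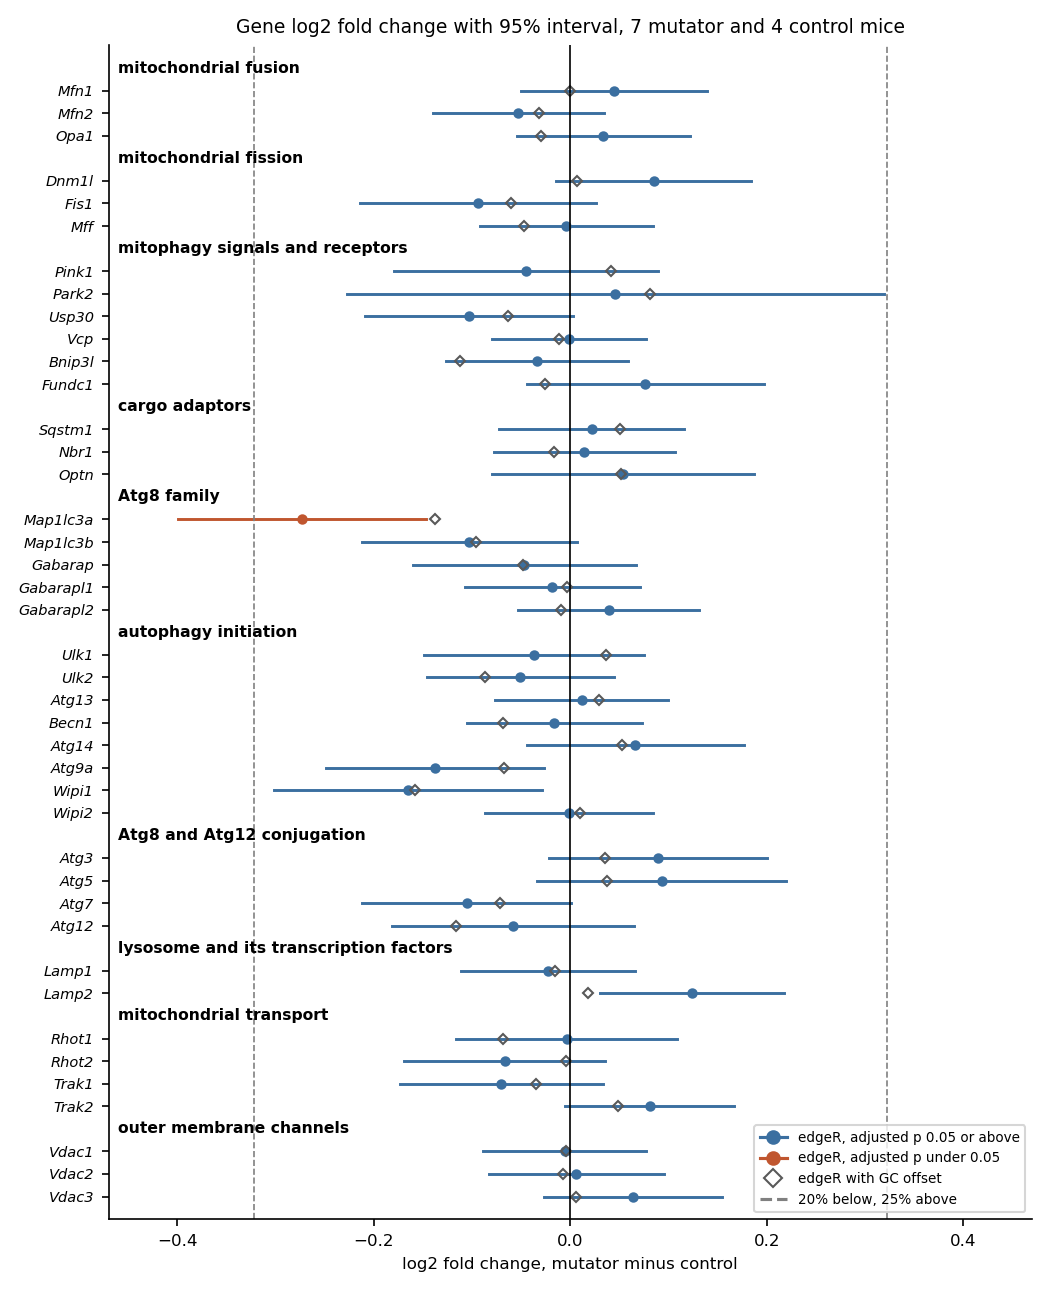
The horizontal axis is the log2 fold change, mutator minus control, and each row is 1 of the 41 genes, grouped by role. Circles and bars are the edgeR estimate and its 95% interval, open diamonds are the estimate with an offset for GC content, and dashed lines mark 20% below and 25% above the control level. The bar of Map1lc3a crosses the left dashed line and does not reach 0, and the other 40 bars stay between the dashed lines.

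Each gene value is in CPM, the count set relative to the total of the library after scaling with edgeR's TMM factors. Library totals were 28249345 to 121182250 gene counts in the controls and 37821243 to 91219204 in the mutators, and each of the 41 genes had at least 109 counts in every mouse. P-values come from edgeR's quasi-likelihood test and were adjusted over all genes tested by the Benjamini-Hochberg method. Mutator mouse 248 stands apart in the authors' read totals, with 76.29% of its reads aligned against 88.29% to 94.09% in the other 10 mice, and with 3.00 gene counts per aligned read listed against 0.744 to 0.775. Which of its listed values is off is not known. Without mouse 248, Map1lc3a was at -0.24 on the log2 scale (edgeR adjusted p = 0.0451) and Inf2, a called gene of the wider pathways described further on, at -0.36 (edgeR adjusted p = 0.0367). The libraries also differ in how counts depend on the GC content of a transcript, which is described further on because it touches most results. In these bulk samples a smaller number of cells of one type and a lower RNA content per cell cannot be told apart. Markers in 7 lists, 6 of brain cell types and 1 of blood, were read beside the results. Of 32 markers tested none was called by edgeR, and without adjustment 3 higher and 9 lower ones had p under 0.05, among them 3 of 5 oligodendrocyte and 4 of 6 microglial markers, all lower. The summed CPM of the oligodendrocyte markers was 4467 to 5129 in the controls and 4359 to 6119 in the mutators, and that of the microglial markers 201.9 to 255.5 and 190.0 to 224.6. The part of these cells in the values below was not tested. Polg itself averaged 66.1 ± 3.0 CPM over the 4 controls and 63.9 ± 4.2 over the 7 mutators (SD). Its level does not check the labels, since D257A is a knock-in change of an amino acid and not a deletion of the gene.

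The 41 transcripts differ widely in abundance. Per kilobase of the longest annotated transcript, the mean of the controls was highest for Gabarapl1, with 304.4 CPM per kilobase, followed by Vdac1 with 216.6, Pink1 with 169.3, Sqstm1 with 148.6 and Lamp1 with 147.0. The lowest were Park2, which encodes parkin, with 2.82, Atg14 with 6.40 and Wipi1 with 7.59 CPM per kilobase. The kinase of the PINK1 and parkin pair was therefore abundant in cerebral RNA and the ligase was the scarcest of the genes described. The spread between mice was small. The coefficient of variation within a group ran from 1.12%, for Vcp in the controls, to 19.1%, for Park2 in the mutators, with a median of 4.34% over the controls and 4.47% over the mutators. No mouse was the extreme one throughout. Among the controls, mouse 237 was the lowest for 17 of the 41 genes and the highest for 13, and mouse 246 was the highest for 17 and the lowest for 2. Among the mutators, mice 207 and 248 were each the lowest for 13 and mouse 217 was the highest for 12.

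LC3A is 1 of the 5 members of the Atg8 family measured, small ubiquitin-like proteins that are joined to lipid on the growing autophagosome membrane and bind the cargo adaptors. Map1lc3a (ENSMUSG00000027602) lies on the plus strand of mm9 at chr2:155102033-155103809, and no other annotated gene overlaps its exons. The last coding exon of Map1lc3a and that of its closest relative Map1lc3b are shown to compare the transcripts that could compete for reads. Both were taken from the mm9 genome annotation of GENCODE, 5′ to 3′, at chr2:155103211-155103370 and chr8:124120496-124120667 on the plus strand, and capitals mark the longest run of bases that the coding sequences share exactly.
Map1lc3a: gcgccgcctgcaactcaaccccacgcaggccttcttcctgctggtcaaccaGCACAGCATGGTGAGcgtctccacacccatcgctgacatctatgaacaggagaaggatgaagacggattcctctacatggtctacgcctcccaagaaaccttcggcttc
Map1lc3b: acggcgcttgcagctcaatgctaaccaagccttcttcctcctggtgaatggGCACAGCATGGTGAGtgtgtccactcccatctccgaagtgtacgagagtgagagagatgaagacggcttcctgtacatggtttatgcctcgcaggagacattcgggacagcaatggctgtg
The shared run is 15 bases long, far short of the 100-base reads, and Map1lc3a shares at most 12 bases in a run with Gabarap, Gabarapl1 or Gabarapl2. Of 41 tiles of 100 bases cut from the Map1lc3a transcript, 0 had a second placement in mm9 with at most 3 mismatches. For its relatives the counts are less certain, since 56.9% of the tiles of Map1lc3b and 53.1% of those of Gabarapl2 had one.

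Map1lc3a had 86.7, 100.2, 94.9 and 98.0 CPM in control mice 205, 237, 239 and 246, and in the mutators from 67.1 CPM in mouse 248 to 86.3 in mouse 217, with a median of 77.1. Each mutator lay below each control, although control 205 and mutator 217 were less than 1 CPM apart. The log2 fold change was -0.27 ± 0.06 (SE, edgeR adjusted p = 0.0297), with a 95% interval from 24.2% to 9.65% below the controls. The call depends on single mice. Without the WT/D257A control 237 the adjusted p-value was 0.166, without control 239 it was 0.0784 and without control 246 it was 0.113, and without mutator 211 or 240 it was 0.0598 or 0.0731, while with any 1 mouse left out the estimate lay between -0.32 and -0.24 on the log2 scale. Calls over all genes tested fell as well. Without control 237, 239 or 246 edgeR called 50, 100 or 93 genes, and without mutator 211 or 240 it called 125 or 112. With all mice it called 223.

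The other Atg8 transcripts were not called. Map1lc3b averaged 181.8 ± 7.9 CPM over the 4 controls and 169.3 ± 12.3 over the 7 mutators (SD), a log2 fold change of -0.10 ± 0.05 (SE, edgeR adjusted p = 0.353). Gabarapl1, the most abundant of the 41 per kilobase, had 537.2 ± 20.5 and 530.3 ± 19.7 CPM, with a 95% interval from -0.11 to 0.07 on the log2 scale. Gabarap was at -0.05 and Gabarapl2 at 0.04 on that scale. Whether Map1lc3a differs in its change from the other 4 was not tested.

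**Figure D2:**
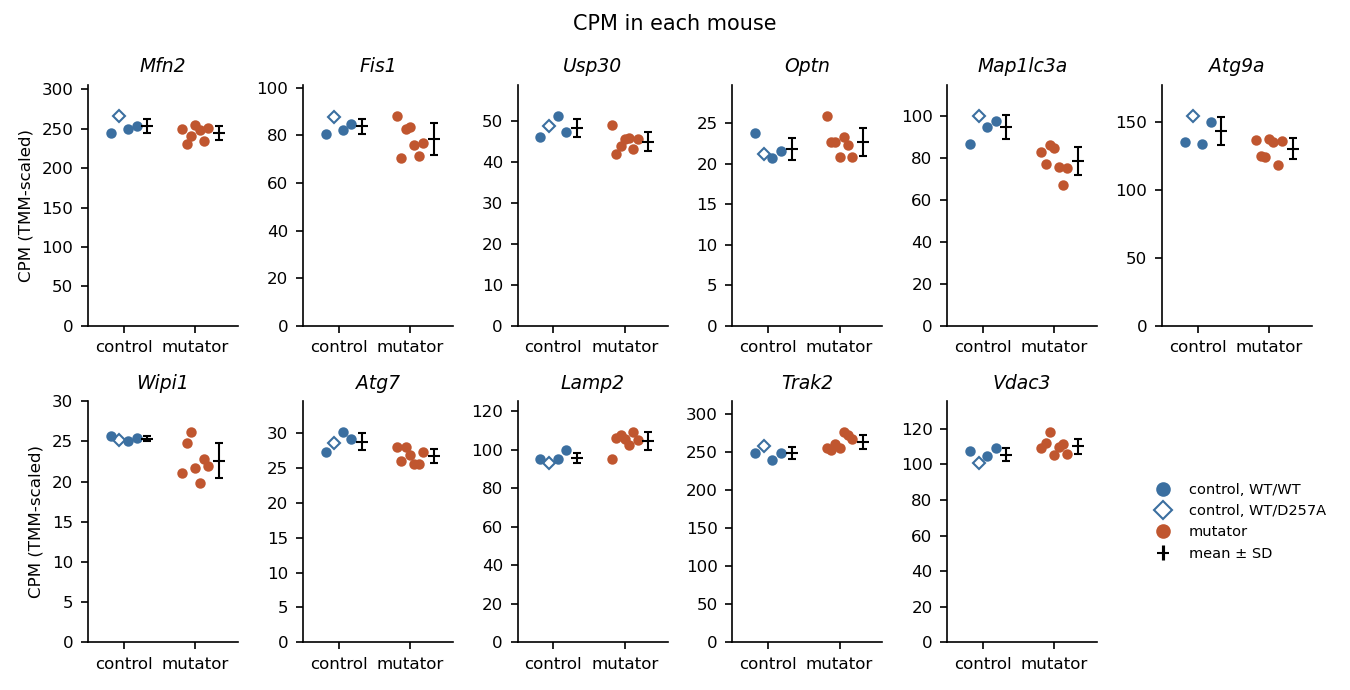
The vertical axes give CPM from 0, each point is 1 mouse, and bars beside the points are the mean and SD of the 4 controls and 7 mutators. The open diamond is the WT/D257A control. Map1lc3a is the only panel whose groups do not overlap, with the mutators at 67.1 to 86.3 CPM and the controls at 86.7 to 100.2.

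Among the genes that start an autophagosome, Wipi1 and Atg9a had the largest differences. WIPI1 binds the phosphoinositide made at the site where the membrane forms. Wipi1 (chr11:109434645-109473281 on the minus strand of mm9) had 25.7, 25.2, 25.03 and 25.4 CPM in controls 205, 237, 239 and 246, and from 19.9 to 26.1 CPM in the mutators with a median of 22.0. The controls were nearly identical, and mutator 217 lay above all of them. The log2 fold change of Wipi1 was -0.17 ± 0.07 (SE, edgeR adjusted p = 0.215). ATG9A is the membrane protein that brings vesicles to the growing autophagosome. Atg9a (chr1:75177440-75188497 on the minus strand) had 135.4, 154.3, 133.9 and 150.1 CPM in the same 4 controls and from 118.0 to 137.0 in the mutators, with a median of 135.5. Controls 205 and 239 lay within the range of the mutators, and the log2 fold change of Atg9a was -0.14 ± 0.05 (SE, edgeR adjusted p = 0.203). The kinases of the initiation complex, Ulk1 and Ulk2, were at -0.04 and -0.05 on the log2 scale, and their partner Atg13 at 0.01. Becn1 and Atg14, subunits of the lipid kinase that makes the phosphoinositide, were at -0.02 and 0.07. The exons of Becn1 are shared over 43.9% of their length with an overlapping gene, so its count is uncertain. Wipi2 averaged 125.4 ± 3.5 CPM over the 4 controls and 125.3 ± 3.9 over the 7 mutators (SD).

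The conjugation enzymes went in both directions without a call. Atg7, the activating enzyme for both conjugation reactions, had 27.2, 28.6, 30.1 and 29.1 CPM in the 4 controls and from 25.5 to 28.0 in the mutators with a median of 26.8. Only control 205 lay within the range of the mutators, and the log2 fold change of Atg7 was -0.11 ± 0.05 (SE, edgeR adjusted p = 0.321). Atg3, the conjugating enzyme for the Atg8 proteins, was at 0.09, Atg5 at 0.09 and Atg12 at -0.06 on the log2 scale, each with an interval that includes 0.

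Lamp2, a glycoprotein of the lysosome membrane that also takes part in chaperone-mediated autophagy, was the gene with the highest log2 fold change of the 41. Lamp2 (chrX:35754534-35809631 on the minus strand) had 95.5, 93.5, 95.1 and 99.8 CPM in the 4 controls and from 95.1 to 109.1 CPM in the mutators, with a median of 105.8. Of the 7 mutators, mouse 207 lay with the controls and the other 6 above them. The log2 fold change of Lamp2 was 0.12 ± 0.04 (SE, edgeR adjusted p = 0.174). Lamp1 was at -0.02 on the log2 scale with an interval that includes 0, and had a mean of 331.4 ± 5.0 CPM over the 4 controls and 326.3 ± 14.5 over the 7 mutators (SD).

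Mitophagy signals and receptors all had intervals within the bounds of 20% below and 25% above. Pink1 averaged 402.2 ± 28.5 CPM over the 4 controls and 389.7 ± 37.3 over the 7 mutators (SD), a log2 fold change of -0.05 with a 95% interval from -0.18 to 0.09. Park2 had the least precise estimate, 3.93 ± 0.32 and 4.03 ± 0.77 CPM, with an interval from -0.23 to 0.32 that only just stays within the bound. Usp30 encodes a deubiquitinase of the outer membrane that opposes parkin. It had 46.0, 48.6, 51.1 and 47.2 CPM in the 4 controls and from 41.9 to 48.9 in the mutators with a median of 45.4. The groups overlapped through mutator 207, and the log2 fold change of Usp30 was -0.10 ± 0.05 (SE, edgeR adjusted p = 0.333). The receptor genes Bnip3l and Fundc1 were at -0.03 and 0.08 on the log2 scale, and Vcp, whose product extracts ubiquitin-tagged proteins from the membrane, was at -0.001 with 287.1 ± 3.2 and 287.0 ± 5.6 CPM. Tiles of the transcripts with a second placement in the genome made up 92.2% for Vcp and 40.2% for Bnip3l, so their counts are uncertain.

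The cargo adaptors, which link ubiquitin to the Atg8 proteins, were slightly above the controls in their estimates, all with intervals that include 0. Optn, which encodes optineurin, had 23.8, 21.2, 20.7 and 21.5 CPM in the 4 controls and from 20.8 to 25.9 in the mutators with a median of 22.6. The mutators covered the whole range of 3 of the 4 controls, and the log2 fold change of Optn was 0.05 ± 0.06 (SE, edgeR adjusted p = 0.733). Sqstm1, which encodes p62, averaged 397.2 ± 6.0 CPM over the 4 controls and 403.2 ± 21.9 over the 7 mutators (SD). Nbr1 was at 0.01 on the log2 scale.

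Fusion and fission genes showed no called difference in either direction. Mfn2, an outer membrane fusion GTPase, had 244.8, 266.1, 250.1 and 253.0 CPM in the 4 controls and from 231.1 to 255.3 in the mutators with a median of 247.9. Only control 237 lay above all mutators, and the log2 fold change of Mfn2 was -0.05 ± 0.04 (SE, edgeR adjusted p = 0.579). Mfn1 and Opa1, the latter the fusion GTPase of the inner membrane, were at 0.04 and 0.03 on the log2 scale. Fis1, an outer membrane protein of the fission machinery, had 80.7, 87.6, 82.2 and 84.6 CPM in the 4 controls and from 70.6 to 88.1 in the mutators with a median of 76.8. Mutator 207 was above all controls, and the log2 fold change of Fis1 was -0.09 ± 0.06 (SE, edgeR adjusted p = 0.451). Dnm1l, which encodes the dynamin-related GTPase that constricts mitochondria, was at 0.08, and its receptor gene Mff at -0.004 on that scale.

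Transport and channel genes were likewise close. Trak2 encodes an adaptor that ties mitochondria to kinesin. It had 248.6, 257.6, 239.2 and 249.3 CPM in the 4 controls and from 253.4 to 275.8 in the mutators with a median of 261.1. Control 237 overlapped the mutators and the other 3 controls lay below them, and the log2 fold change of Trak2 was 0.08 ± 0.04 (SE, edgeR adjusted p = 0.351). Trak1 was at -0.07, and Rhot1 and Rhot2, which encode outer membrane proteins that hold the transport complex, were at -0.004 and -0.07 on the log2 scale. Of the channels, Vdac3 had 107.4, 100.7, 104.7 and 108.8 CPM in the 4 controls and from 105.0 to 117.8 in the mutators with a median of 109.6. Its groups overlapped through the controls other than 237 and 239, and the log2 fold change of Vdac3 was 0.06 ± 0.04 (SE, edgeR adjusted p = 0.502). Vdac1 and Vdac2 were at -0.006 and 0.006. Second placements made up 98.0% of the tiles of Vdac3 and 40.0% of those of Vdac2.

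Other genes of the same pathways were read as a wider list of 90, of which 86 were tested. Of these 1 was called by edgeR, against 1.24% of all genes, and without adjustment 14 had p under 0.05, 10 as higher and 4 as lower, where 15.8% of all genes tested had one. With the offset for GC content described further on, that count was 5, where 12.9% of all genes tested had one. The called gene was Inf2, which encodes a formin that acts on actin at sites of fission. Inf2 averaged 175.2 ± 21.6 CPM over the 4 controls (SD), ranging from 155.9 to 205.9, and 136.5 ± 10.8 over the 7 mutators (SD), ranging from 122.2 to 155.8. The groups were separated by a small gap, where those of 2.62% of all genes tested did not overlap. The log2 fold change of Inf2 was -0.36 ± 0.07 (SE, edgeR adjusted p = 0.0150). Without the WT/D257A control 237 it was -0.27 (edgeR adjusted p = 0.0653), and the count of 14 fell to 5. That count was 9 without control 246, mutator 211 or mutator 248, and 21 without control 205. The number of all genes tested that edgeR called, 223 with all mice, changed as well. It was 50 without control 237, 93 without control 246, 125 without mutator 211 and 412 without control 205. The share of all genes with an unadjusted p under 0.05 in these fits was not compared. By lists, 1 of 21 further dynamics genes, 0 of 15 mitophagy genes, 0 of 20 autophagosome genes, 0 of 20 lysosomal and control genes and 0 of 10 transport genes were called. The list medians lay between -0.05 and 0.05 on the log2 scale.

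Differences between the groups followed the GC content of the transcripts, over all genes and among these 41. The median log2 fold change was 0.09 in the 10% of genes lowest in GC content and -0.11 in the 10% highest. Over the 41 genes Spearman's correlation of the log2 fold change with the GC content of the longest transcript was -0.63, and over 15556 genes it was -0.43. The points share the same 11 libraries and are not independent. Of the 10 genes lowest in GC content, from Lamp2 at 38.7% upward, 7 had a log2 fold change above 0, with a median of 0.07. Of the 10 highest, 9 were below 0, with a median of -0.08. Map1lc3a, at 63.1%, was the richest in GC of the 41, and Inf2 had 59.9%.

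**Figure D3:**
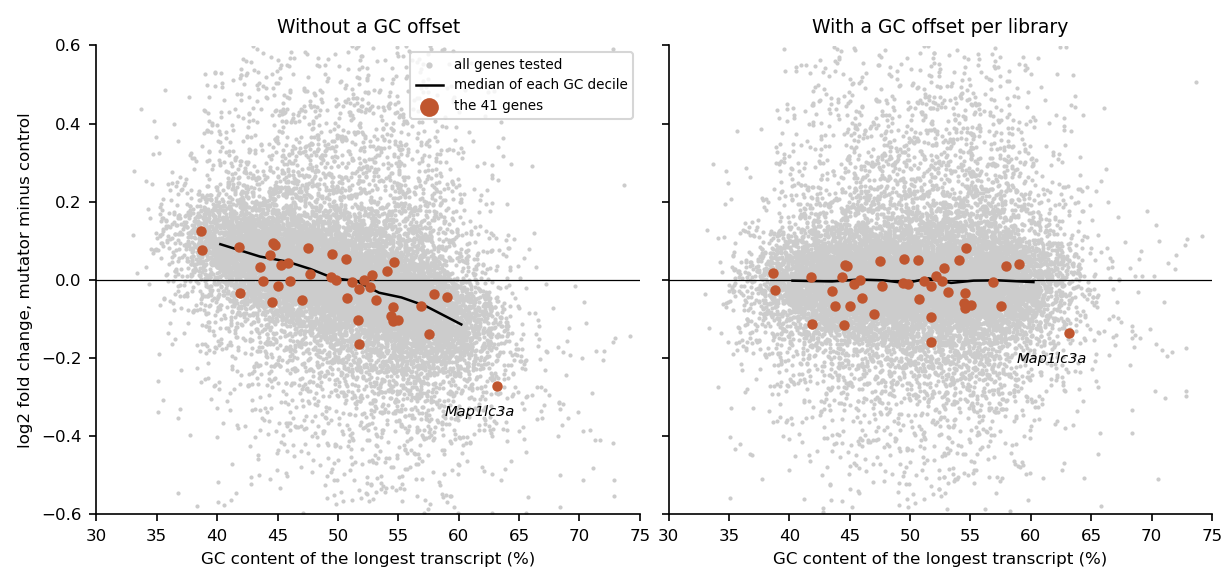
Both panels plot the log2 fold change, mutator minus control, against the GC content of the longest transcript in percent, on the left without and on the right with an offset for GC content in each library. Grey points are the genes tested that have a value within the plotted range, the black line joins the medians of 10 equal groups of genes ordered by GC content, and the larger points are the 41 genes. The line falls from 0.09 to -0.11 on the left and is flat on the right, where Map1lc3a moves from -0.27 to -0.14.

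The trend differed between single libraries. The difference between the 10% of genes highest and the 10% lowest in GC content, in median log2 CPM relative to the mean of all mice, was 0.35 in control 237, 0.13 in control 246, 0.08 in control 239 and -0.04 in control 205. In the mutators it ran from -0.31 in mouse 248 and -0.20 in mouse 211 to 0.09 in mouse 236, with mouse 207 also above 0. The means were 0.13 ± 0.16 for the controls and -0.08 ± 0.14 for the mutators (SD, n = 4 and 7). The 2 ranges overlap, and the steepest control is the only WT/D257A mouse. Control 237 and mutators 211 and 248 were chosen for their steep trends after seeing the data, and without these 3 libraries Spearman's correlation over the 41 genes was -0.13 and over 15535 genes -0.12. A weaker correlation follows from a choice made by this trend, and only 3 controls and 5 mutators remained. Map1lc3a was then at -0.20 on the log2 scale (edgeR adjusted p = 0.292), and Lamp2 at 0.10 (edgeR adjusted p = 0.649).

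**Figure D4:**
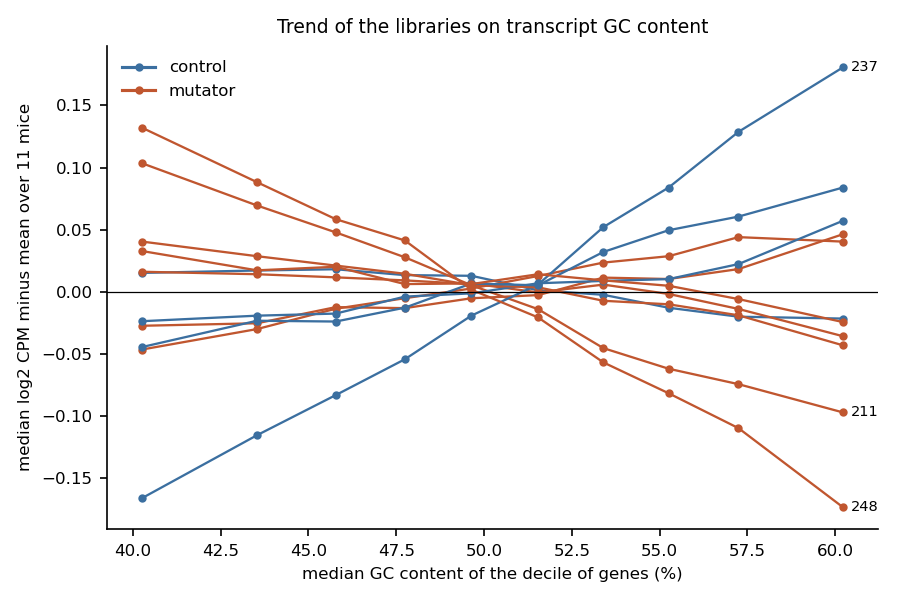
The horizontal axis is the median GC content in percent of each of 10 equal groups of genes and the vertical axis the median log2 CPM of these genes minus the mean over the 11 mice. Each line is 1 library, with the controls and the mutators in different colours. Control 237 rises the most, by 0.35, and mutators 248 and 211 fall the most, while the other 8 lines lie closer to 0.

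When the trend of each library was removed with an offset, a step chosen after seeing the data, none of the 41 genes was called by edgeR, where 1.02% of all genes were. Without adjustment 5 of the 41 then had p under 0.05, all lower, namely Bnip3l, Map1lc3a, Wipi1, Ulk2 and Atg12, against 12.9% of all genes tested, 7.37% as lower. Spearman's correlation with GC content over the 41 genes was then 0.02, a value near 0 that follows from removing the trend. Map1lc3a was at -0.14 ± 0.04 (SE, edgeR adjusted p = 0.123), with 86.5 to 92.2 CPM in the controls and 77.2 to 89.1 in the mutators, so that its groups overlapped. Wipi1, of medium GC content, changed little and was at -0.16 (edgeR adjusted p = 0.284). Lamp2 went from 0.12 to 0.02 (edgeR adjusted p = 0.92), and Atg9a from -0.14 to -0.07 (edgeR adjusted p = 0.485). Bnip3l, low in GC content, went from -0.03 to -0.11 ± 0.04 (SE, edgeR adjusted p = 0.166), with 144.3 to 160.1 CPM in the controls and 131.4 to 143.8 in the mutators, so that with the offset its groups did not overlap, as was so for 2.46% of all genes tested. Inf2 was still called, at -0.26 (edgeR adjusted p = 0.0398). The part of the GC trend in the difference of Map1lc3a was not tested beyond these values.

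Counts per exon bin were available for the 7 mutators and the 3 WT/WT controls. A bin is a piece of a gene between the points where annotated exons begin or end, and its usage is its count relative to the other bins of the gene. Rhot2 overlaps Wdr90, which is not among the 41 genes, and shares a set of 62 bins with it. Bins counted for Rhot2 can therefore be those of Wdr90, and usage there is relative to both genes. Of 803 bins assigned to the 41 genes in this way and tested with edgeR's diffSpliceDGE, 0 were called, where 0.0237% of 206930 bins were, and limma's diffSplice also called 0. Without adjustment 17 bins had p under 0.05 with edgeR, 2.12% of those tested against 1.90% of all bins, and 19 with limma. Of the 17 bins, 15 had lower usage in the mutators, and all 14 of these that could be placed on the annotation were among the first 6 bins from the 5′ end of their gene, a limit set after seeing them, where 24.9% of 714 placed bins are. Their median GC content was 75.7%, that of the placed bins 51.1%. Over all genes, 2579 of the 3923 bins with p under 0.05 also had lower usage, and the position and GC content of those bins were not compared with these.

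The 5 bins with the lowest p-values were bins 5 and 4 of Rhot1, bin 1 of Lamp1, bin 12 of Pink1 and bin 3 of Mfn1, all with a lower estimated usage in the mutators. Bin 5 of Rhot1 (chr11:80022621-80022648, 28 bases) held 0.485%, 1.12% and 0.429% of the bin counts of the gene in WT/WT mice 205, 239 and 246, and from 0.201% to 0.640% in the mutators with a median of 0.328%. Mouse 239 alone lay above the mutators, and the log2 fold change in usage was -0.82 ± 0.23 (SE, edgeR adjusted p = 0.506). Bin 1 of Lamp1 (chr8:13159135-13159434) held 0.875%, 1.17% and 0.959% in the same WT/WT mice and from 0.673% to 0.908% in the mutators with a median of 0.784%, with mouse 205 inside the range of the mutators. Its log2 fold change in usage was -0.38 ± 0.09 (SE, edgeR adjusted p = 0.652). Bin 12 of Pink1 (chr4:137882005-137882094), with 82.2% GC, was at -0.72, bin 4 of Rhot1, 6 bases long, at -0.94, and bin 3 of Mfn1, 22 bases long, at -0.93 on the log2 scale, each with an adjusted p-value near 1. These short bins rest on few reads, from 2 to 30 in bin 4 of Rhot1 and from 2 to 21 in bin 3 of Mfn1. Mouse 239 was again the only WT/WT mouse above the mutators in bin 12 of Pink1 and bin 4 of Rhot1. It held 1.42% there against at most 0.863% in the mutators, and 0.562% against at most 0.256%. In bin 3 of Mfn1, mouse 205 lay within the range of the mutators.

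In Map1lc3a the difference was not limited to 1 end of the gene. CPM of a bin is its count relative to all bin counts of the library, without TMM factors. The log2 ratio of the mean CPM of the mutators to that of the WT/WT controls was -0.96 in bin 1, which holds 72.0% GC and 12 to 84 counts per mouse, and -0.49 in bin 2 with 77.9% GC. In bins 3 to 6, which hold most of the counts of the gene, it was -0.20, -0.30, -0.25 and -0.21. The value of bin 1 rests on WT/WT mouse 239, the only one above the mutators in that bin. WT/WT mice 205, 239 and 246 had 0.614, 1.54 and 0.487 CPM there, and the mutators from 0.217 to 0.857. Bin 5, with 51.4% GC, averaged 25.5 ± 1.4 CPM over the 3 WT/WT controls and 21.5 ± 1.6 over the 7 mutators (SD). The part of the GC trend in the values of these bins was not tested. No bin of Map1lc3a differed in usage after adjustment, and bin 1, at a log2 fold change in usage of -0.77 ± 0.27 (SE), was the one with the lowest p-value.

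**Figure D5:**
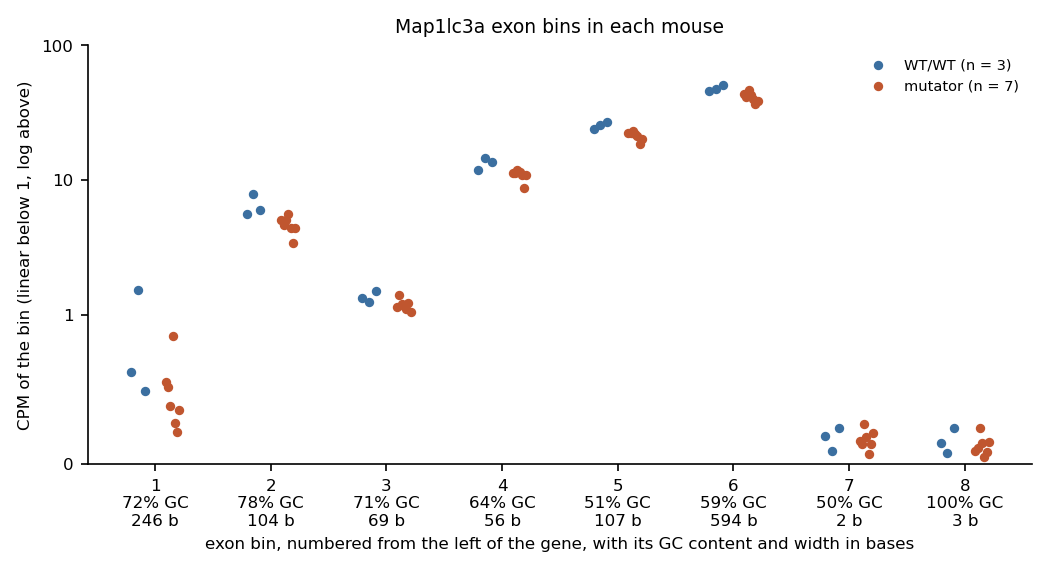
The horizontal axis gives the 8 exon bins of Map1lc3a from its 5′ end with their GC content and width, and the vertical axis the CPM of the bin, linear below 1 and logarithmic above. Each point is 1 of 3 WT/WT or 7 mutator mice. Most mutators lie below the WT/WT mice in bins 2 to 6, with means of 21.5 and 25.5 CPM in bin 5, and the widest spread is in bin 1.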

How the data were processed

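The authors made 100-base paired reads of poly(A)+ RNA with an unstranded kit. The submitters' processing notes name TopHat2 2.0.6, Bowtie2 2.0.2.0, HTSeq 0.5.3p9 and mm9. They deposited whole-number counts per Ensembl gene for 11 mice and per exon bin for 10, without mouse 237, neither normalized. Multiple placement and strand settings of the counting are not given in the sources used here. The deposited DESeq and DEXSeq tables hold the authors' means, log2 fold changes and p-values and were not used. The deposited read totals and percent aligned were read as they are. Reads in no bin, 20.6% to 23.4% of the exon files, stayed out of library sizes.

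Here gene counts were tested with edgeR 4.0.16 (R 4.3.3; filterByExpr, TMM, robust quasi-likelihood), mutators against all 4 controls, with Benjamini-Hochberg adjustment. Group overlap was read from log2 CPM with a prior count of 2. Bins were tested with diffSpliceDGE, whose natural logs were turned into log2. Standard errors come from the estimate and F. Nothing but the labels says that the 11 mice are independent replicates, and p-values measure the spread between them.

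Genes given with a value in every mouse have an unadjusted p-value under 0.05, groups that do not overlap or the largest change of their role. Of the pathway genes, those called are named, and of bins, those called or the 5 lowest in p. The members and lists were chosen with earlier results of these data known. Positions and GC content come from GENCODE M1 on mm9, a later release than the authors' Ensembl annotation, and bin numbers matched it for all but 3 of the 41 genes. Of all genes tested, 86.5% had a GC value. The GC offset is a lowess trend (span 0.5) of log2 CPM per library. Tiles of 100 bases, every 25 bases, were placed with minimap2 2.31 (at least 95 bases aligned). The edgeR fits with and without the GC offset, DESeq2, diffSpliceDGE and limma's diffSplice were tested on simulated counts, and the other steps were not. The symbols Tfeb and Tfe3 are not analysed here. Park2 shares its symbol between 2 identifiers.

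Alternatives were DESeq2 1.42.0, RLE and upper-quartile scaling, no filter on low counts, a minimum mean count of 10, WT/WT controls only, log2 total count as covariate, mitochondrial genes left out, each mouse left out and, added after seeing the data, the GC offset and leaving out 3 libraries. For bins they were limma 3.58.1, a mean count of at least 10, merged genes left out and each mouse left out.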

Additional observations from a re-analysis of the deposited data

Results flagged for a closer look

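Among 82 groups of values (41 genes, controls and mutators apart), 2 held a mouse that stood far from the rest of its group, where chance alone gives about 4.1. For Opa1, mutator mouse 236 was the lowest at 187.3 CPM, and its gap to the next mouse was 0.623 of the whole range of the mutators, which spans only 187.3 to 197.0 CPM. For Bnip3l, mutator mouse 211 was the highest at 152.9 CPM, with a gap of 0.581 of the range, which starts at 135.7 CPM. Mouse 211 is also 1 of the 2 mutator libraries with the steepest fall on GC content, and Bnip3l is among the genes low in GC content. The part of that trend in this value was not tested. Neither gene was called in the comparison with the controls.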

How the results depend on the processing

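The median log2 fold change of the 41 genes stayed between -0.02 and 0.01, and the number with an interval within 20% below to 25% above between 38 and 40, under all 21 alternatives, 2 of which (WT/WT controls only, and mouse 237 left out) are the same fit. The number of the 41 genes called, 1 in the report, was 0 with the WT/WT controls only, 0 with the GC offset and 0 without the 3 libraries with the steepest GC trend (control 237, mutators 211 and 248), and it ranged from 0 to 1 with each mouse left out. The number called over all genes tested changed too. It was 223 of 17983 in the report, 50 of 18304 with the WT/WT controls only, 184 of 17983 with the GC offset and 616 of 28093 with DESeq2. Map1lc3a was called in 13 of the 21 alternatives, among them DESeq2 (adjusted p = 0.00584), and its adjusted p-values over all of them ran from 0.00584 to 0.292. Its log2 fold change was below 0 in all, at -0.20 without the 3 libraries and at -0.14 with the GC offset, where its groups overlapped. The log2 fold change of Mfn2 turned to 0.00074 without those 3 libraries. The number of pathway genes called, 1 in the report, was 2 with DESeq2 (Inf2 and Bnip3), 0 with the WT/WT controls only, 0 without the 3 libraries and from 0 to 1 with each mouse left out, 0 being without control 237. The number of exon bins called ranged from 0 to 1 with each mouse left out, bin 5 of Rhot1 without WT/WT mouse 205 and bin 12 of Pink1 without mutator 207, and was 0 in the other alternatives. The causes of these changes were not tested. No paired analysis was possible because the labels give the mice no number shared between the groups. Depth limits Park2, which rests on 109 to 466 counts per mouse, and the shortest bins.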

Other observations

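Further genes of these pathways, none called by edgeR, were read as values only. Bnip3, which encodes a mitophagy receptor related to the product of Bnip3l, averaged 101.3 ± 2.9 CPM over the 4 controls and 110.3 ± 2.1 over the 7 mutators (SD), with groups that did not overlap, at a log2 fold change of 0.12 ± 0.04 (SE, edgeR adjusted p = 0.127). Groups did not overlap for 2.62% of all genes tested. DESeq2 called Bnip3, as 1 of 616 genes called, where edgeR called 223. With the GC offset Bnip3 was at 0.04. Atg2b, a lipid transfer protein of the autophagosome, was at 0.14 without and 0.13 with the offset (edgeR adjusted p = 0.129 and 0.134), and Atg4a, a protease of the Atg8 proteins, at 0.24 and 0.17 (edgeR adjusted p = 0.187 and 0.481). Their relatives lay below 0 or close to it without the offset, Atg2a at -0.14 (edgeR adjusted p = 0.265), Atg4d at -0.13 (edgeR adjusted p = 0.304), Atg4c at -0.08 (edgeR adjusted p = 0.509) and Atg4b at 0.02. With the offset Atg2a was at -0.04, Atg4d at -0.05, Atg4c at -0.14 and Atg4b at 0.02, none of them called. Kif5b, a kinesin heavy chain that carries mitochondria, was at 0.16 and 0.07 (edgeR adjusted p = 0.145 and 0.56). Kif5a and Kif5c, which encode the other kinesin heavy chains of this kind, were at -0.09 and -0.06 without the offset (edgeR adjusted p = 0.385 and 0.536). With the offset they were at -0.07 and -0.09. These genes were picked out after their values were seen.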
